A study of Homo sapiens with 19 samples.

Results

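EZH1 loss was examined in human embryonic stem cells (hESCs) that lack EZH2. The comparison sets EZH2-/-/EZH1-/- H1 cells, called the double knockout here, against EZH2-/- H1 cells, and rests on 4 of the 19 RNA-seq samples of the series, 2 per line, taken by their genotype labels alone. H1 is an established hESC line, and all lines named here were grown in mTeSR1 medium on Matrigel. Both lines of the comparison lack EZH2, through a knockout made with CRISPR/Cas9 and a donor plasmid that targeted the part of the gene coding for the SET domain, the catalytic part of the protein. The study made double knockouts from either single knockout and puts the gene lost first in front. The sample titles and descriptions put EZH2 first, and so does the study's account of its transcriptome analysis. That order stands for EZH1 targeted in EZH2-/- cells. The genotype labels and the names of the deposited tables put EZH1 first, and the order was not checked further. It is thus not settled that the EZH2-/- line is the parent of the double knockout. Below, before and after loss of EZH1 mean the EZH2-/- and the double knockout samples. Each line came from selected clones, and a difference between the lines also holds whatever else differs between those clones. WT H1 and EZH1-/- H1 cells, with 2 samples each, give the loss of the same gene where EZH2 is intact. EED-/- H1 and SUZ12-/- H1 cells, with 2 samples each, lack another core subunit of the same complex. The labels do not say whether the 2 samples of a line were separate cultures, and p-values then measure only the spread between these samples, which may be technical.

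Polycomb repressive complex 2 (PRC2) silences genes by methylating lysine 27 of histone H3. EED and SUZ12 hold the complex together, and EZH1 and EZH2 are alternative catalytic subunits, of which EZH2 is the more active methyltransferase and the one most abundant in dividing cells. In hESCs the best known PRC2 targets are regulators of development that stay off until differentiation, such as the HOX genes and the GATA, FOXA, HAND, PAX and TBX factors. Many of these targets have promoters rich in CG dinucleotides.

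The values are TPM, the usual length-corrected measure of transcript abundance, whose sum is fixed within each sample. They hold no read counts, so the sequencing depth is unknown and precision rests on the 2 samples of each line. Log2 differences are on the log2(TPM + 1) scale, so that the change of a weakly expressed gene comes out too small. Of 33382 genes in the files, 16615 reached 1 TPM in 2 or more of the 4 samples and were tested with limma, in a fit of 12 samples from 6 lines. A call of higher or lower needs a p, adjusted after Benjamini and Hochberg, that does not exceed 1%, and a 3-fold or larger change.

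The transcript levels of the targeted genes did not report the knockouts. EZH1 stood at 9.72 and 7.92 TPM in the 2 EZH2-/- samples and at 9.37 and 6.78 TPM in the 2 double knockout samples, and the samples of the lines overlapped. EZH2 stood at 46.9 and 22.02 TPM in the EZH2-/- samples and at 31.3 and 20.0 TPM in the double knockout samples. In WT H1 cells EZH1 was at 13.7 and 14.3 TPM and EZH2 at 54.5 and 58.9 TPM. A gene-level TPM counts RNA from the whole gene, so it does not check a change in the SET domain region, and the labels were not checked by these values. The study itself examined the targeted genes by genomic PCR, qRT-PCR and western blot. It reports that H3K27me3, the histone mark made by PRC2, was abolished in EZH2-/-/EZH1-/- H1 cells and lowered in EZH2-/- H1 cells. EED, SUZ12 and the histone-binding subunits RBBP4 and RBBP7 were not called either, which leaves 0 of the 6 core PRC2 genes called in either direction.

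The labelled cell type was checked against summed levels of cell type markers. The summed TPM of 6 hESC markers, POU5F1, NANOG, SOX2, LIN28A, TDGF1 and DPPA4, was 6020 and 5710 in the EZH2-/- samples and 444 and 309 in the double knockout samples, and all 6 markers were lower. LIN28A lost its call without either EZH2-/- sample or without double knockout sample 2. The double knockout samples are therefore labelled as H1 hESCs but hold little of the RNA that defines hESCs. Summed markers of endoderm went from 1.56 and 0.66 to 314 and 169 TPM, those of liver or yolk sac from 9.60 and 10.6 to 2470 and 2750 TPM, and those of fibroblasts from 22.9 and 24.3 to 4920 and 2480 TPM. The sums went from 0.55 and 0.25 to 40.7 and 20.1 TPM for mesoderm, from 196 and 609 to 4240 and 5310 TPM for smooth muscle and from 12.1 and 14.4 to 191 and 189 TPM for trophoblast or amnion. In each of the last 2 sets, 3 of the 4 markers were called higher. The sum of the 3 neural markers went from 1.63 and 0.55 to 23.6 and 26.6 TPM, with 1 of the 3 called higher. That marker was PAX6, which alone stood at 21.9 and 24.5 TPM in the double knockout samples. The 4 endothelial markers did not separate the lines, at 75.9 and 44.7 TPM in the EZH2-/- samples and 163 and 45.5 TPM in the double knockout samples, with 2 of the 4 called higher. The 3 blood markers, PTPRC, SPI1 and GATA1, summed to 1.42 and 0.58 TPM in the EZH2-/- samples and to 1.46 and 0.66 TPM in the double knockout samples, with GATA1 at 0 in both of the latter. Loss of silencing at a gene and a differentiated state of the cells cannot be told apart in this comparison. In these bulk samples, fewer cells of a type and less RNA per cell cannot be told apart either.

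Loss of EZH1 where EZH2 was absent went with a large change of the transcriptome. A total of 2346 genes, 14.1% of those tested, were higher in the double knockout and 935 genes, 5.63%, were lower. Each list count below is to be read beside these shares, which are repeated for only some of the lists. No list was tested against them. At an unadjusted p of 0.05, 9327 genes differed. The median log2 difference over all tested genes was 0.22, so most genes had a slightly higher TPM in the double knockout. With TPM rescaled by median ratios this median was 0.01 and the counts became 2006 higher and 1307 lower. The share of calls that were higher was 71.5% as deposited and 60.5% after rescaling.

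Part of the rise was in genes that were off in EZH2-/- cells. A gene was counted as silent at a TPM below 1 in both samples of a line and as on at a TPM of at least 5 in both. By this count, which uses no test, 415 of 33382 genes (1.24%) were silent in EZH2-/- cells and on in the double knockout, and 57 genes (0.171%) changed the other way. Of the 415 genes, 332 (80.0%) were also below 1 TPM in all 4 WT and EZH1-/- samples, and 1 reached 5 TPM in an EZH1-/- sample. Of the 17383 silent genes that did not come on, 16177 (93.1%) were below 1 TPM in those 4 samples. A TPM of 0 was listed in both EZH2-/- samples for 92 of the 415 genes (22.2%) and for 63.1% of the silent genes that did not come on. Their mean TPM in the double knockout had a median of 16.5 over the 415 genes and reached 7000, and 31 of them were at 50 TPM or more in both samples. Of the 415 genes 374 (90.1%) code for proteins, beside 86.5% of all tested genes. The silent genes that came on were a small part of the 17798 genes that were silent in both EZH2-/- samples.

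The start regions of 4 genes are shown, 3 for developmental regulators that were silent in EZH2-/- cells and on in the double knockout, and 1 for an apolipoprotein gene of the same kind. They are RefSeq sequences of GRCh38.p14, from 250 bases before to 50 bases after the start, written 5′ to 3′ on the strand of the gene, with CG in capitals.

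HOXD11, a HOX factor of the posterior body axis, chr2:176107030-176107329, plus strand, 27 CG: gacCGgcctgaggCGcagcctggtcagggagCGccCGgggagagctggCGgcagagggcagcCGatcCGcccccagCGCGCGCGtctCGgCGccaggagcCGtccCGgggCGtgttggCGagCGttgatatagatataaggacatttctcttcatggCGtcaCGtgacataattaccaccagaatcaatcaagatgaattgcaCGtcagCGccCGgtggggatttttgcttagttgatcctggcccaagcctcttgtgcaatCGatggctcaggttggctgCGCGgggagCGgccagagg
GATA6, an endoderm and heart factor, chr18:22169339-22169638, plus strand, 25 CG: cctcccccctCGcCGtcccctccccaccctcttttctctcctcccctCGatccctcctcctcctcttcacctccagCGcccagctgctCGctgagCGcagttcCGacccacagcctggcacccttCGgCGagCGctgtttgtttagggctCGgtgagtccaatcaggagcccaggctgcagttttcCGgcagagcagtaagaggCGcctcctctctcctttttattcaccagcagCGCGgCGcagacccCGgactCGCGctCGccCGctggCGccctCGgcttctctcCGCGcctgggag
HAND1, a heart and extraembryonic mesoderm factor, chr5:154478178-154478477, minus strand, 21 CG: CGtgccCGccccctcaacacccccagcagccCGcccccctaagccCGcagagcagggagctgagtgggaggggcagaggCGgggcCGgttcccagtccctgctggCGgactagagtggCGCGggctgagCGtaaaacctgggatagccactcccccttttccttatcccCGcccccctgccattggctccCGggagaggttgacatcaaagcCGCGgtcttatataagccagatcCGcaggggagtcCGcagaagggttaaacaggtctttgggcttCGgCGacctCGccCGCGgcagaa
APOA2, an apolipoprotein of liver and yolk sac, chr1:161223579-161223878, minus strand, 1 CG: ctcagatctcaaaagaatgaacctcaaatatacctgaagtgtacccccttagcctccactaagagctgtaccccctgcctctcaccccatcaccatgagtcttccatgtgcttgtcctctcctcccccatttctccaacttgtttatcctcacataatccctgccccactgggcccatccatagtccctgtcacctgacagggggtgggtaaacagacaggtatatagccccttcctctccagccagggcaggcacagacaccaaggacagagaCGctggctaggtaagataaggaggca

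Over all 27305 promoters of the table the median was 14 CG, and 48.8% held at least 15. CG reads the same on both strands. Of the 21 liver and yolk sac genes described below, 17 were in the table (81.0%), with a median of 4 CG, and 1 of them (5.88%) held at least 15. The other sets were matched too poorly for such a count, 51.3% of the HOX genes and 66.5% of the 415 silent genes that came on, so the comparison was void for them. It was also void for the tested genes (74.3% matched) and for the silent genes that did not come on (39.3%), so the liver and yolk sac genes stand beside all promoters only and not beside genes of like expression. HOXD11 and APOA2 were silent and on alike, with 27 CG and 1 CG in these windows.

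HOX genes give the body axis its positions, and PRC2 is best known for keeping them off. All 39 HOX genes were below 1 TPM in both EZH2-/- samples, and 24 of them were at 5 TPM or more in both double knockout samples. Of the 39, 35 passed the filter and 32 were called higher, with 0 lower and a median log2 difference of 3.41 beside 0.22 over all genes. For a gene below 1 TPM in both EZH2-/- samples the filter can be passed only through the double knockout samples. Counts and medians over lists of silent genes therefore describe those lists and do not test them, here and below. The 4 HOX genes that did not pass were HOXA2, HOXA6, HOXB1 and HOXC5, with 0 to 3.20 TPM in the double knockout samples. HOXB4, HOXD3 and HOXD8 passed the filter at 1.29 to 2.55 TPM and were not called.

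Levels differed along the clusters. HOXD11 was at 0 and 0.10 TPM in the EZH2-/- samples and at 38.1 and 76.1 TPM in the double knockout samples, the highest HOX level in a single sample. HOXA10 was listed at 0 in both EZH2-/- samples and reached 41.8 and 42.6 TPM, and HOXB9 reached 48.3 and 30.7 TPM from 0 in both. The first genes of the B and D clusters, which act in the hindbrain and anterior body, had low levels. HOXB1 was at 0.07 and 0.08 TPM and HOXD1 at 4.23 and 3.88 TPM in the double knockout samples. In the HOXC cluster HOXC9 was at 8.25 and 24.7 TPM and HOXC13 at 11.5 and 21.2 TPM. Of the 35 tested HOX genes, 18 were higher in double knockout sample 1 and the rest in sample 2.

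**Figure D1:**
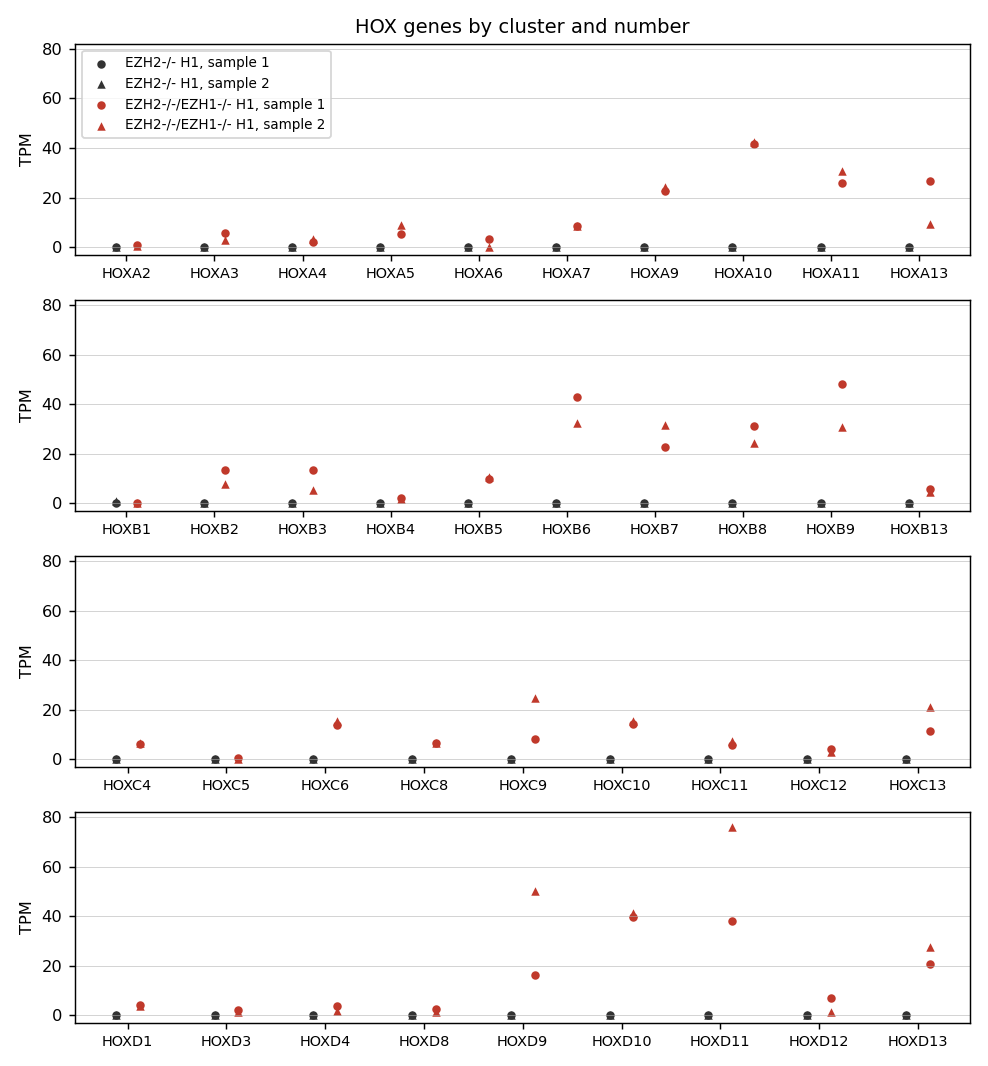
TPM of HOX genes by cluster, from low to high gene number, with circles for sample 1 and triangles for sample 2 of each line. The EZH2-/- H1 samples (dark) lie at or near 0 throughout, and the double knockout samples (red) are highest at HOXD11, with 38.1 and 76.1 TPM.

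Many other homeobox and T-box regulators were higher. Of 37 such genes, 33 were tested, 23 were higher and 0 were lower, or 1 without EZH2-/- sample 1, with a median log2 difference of 2.05. PITX1, a hindlimb and pituitary factor, rose from 0 and 0.26 to 157 and 169 TPM. TBX2, TBX4 and TBX18, of heart, limb and body wall mesoderm, were listed at 0 in both EZH2-/- samples and stood at 12.5 to 21.6, 8.30 to 31.5 and 2.54 to 8.57 TPM in the double knockout. EVX1 and EVX2, which lie at the ends of the HOXA and HOXD clusters, were called as well, at 21.6 and 17.8 and at 4.37 and 2.13 TPM.

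Endoderm regulators were among the clearest rises. Of 15 genes, 14 were tested and 11 were higher, with 0 lower, or 1 after rescaling or without EZH2-/- sample 2, and a median log2 difference of 4.20. GATA4, which with GATA6 specifies primitive and definitive endoderm, was at 0.75 and 0.41 TPM in the EZH2-/- samples and at 124 and 75.2 TPM in the double knockout samples, a log2 difference of 5.96 ± 0.28 (SE, adjusted p = 1.22e-07). GATA6 was listed at 0 in both EZH2-/- samples and reached 42.8 and 20.5 TPM. SOX17, a marker of definitive endoderm and of endothelium, rose from 0.06 and 0 to 64.1 and 33.5 TPM (log2 difference 5.52 ± 0.31, adjusted p = 4.57e-07). All of these values were higher in double knockout sample 1, and no sample of one line came near those of the other. The samples of the 2 lines did not overlap in any of the 2346 genes called higher or the 935 called lower, so this does not set these genes apart. FOXA2, a pioneer factor of the foregut, rose from 0 and 0.25 to 36.0 and 26.4 TPM, and HNF4A, a regulator of hepatocyte genes, from 0.03 and 0 to 33.8 and 11.7 TPM. FOXA3 was already expressed in EZH2-/- cells, at 19.5 and 21.9 TPM, and stood at 8.87 and 10.4 TPM in the double knockout without being called.

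Secreted proteins of liver and yolk sac reached high levels. Of 21 genes, 17 were tested and 9 were higher, with 0 lower. TTR, which carries thyroid hormone and vitamin A, was listed at 0 in all 6 WT, EZH1-/- and EZH2-/- samples and stood at 1369 and 1746 TPM in the double knockout samples. APOA1, the main protein of high-density lipoprotein, rose from 1.10 and 1.07 to 875 and 814 TPM, a log2 difference of 8.66 ± 0.28 (adjusted p = 1.73e-08). APOA2 rose from 0.64 and 0 to 169 and 310 TPM, and VTN, which codes for vitronectin, from 0 and 0.32 to 75.6 and 72.3 TPM. Not all genes of the list moved alike. AFP, the fetal counterpart of albumin, rose from 8.23 and 9.39 to 201 and 183 TPM, while albumin itself (ALB) reached 1.91 and 1.37 TPM and was not called. APOE was at 712 and 1147 TPM before and at 1425 and 1750 TPM after loss of EZH1, and was not called. Fibrinogen genes separated the 2 double knockout samples, with FGB at 35.5 and 7.87 TPM and FGA at 22.4 and 1.24 TPM. FGB was called higher and lost the call without either EZH2-/- sample or double knockout sample 1.

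Genes of the primitive streak, the transient source of mesoderm and endoderm, were called at low levels. Of 12 genes, 8 were tested, 6 were higher and 1 was lower. T (brachyury) rose from 0.30 and 0.18 to 3.95 and 4.13 TPM and EOMES from 0.14 and 0.07 to 7.48 and 4.17 TPM. GSC, the homeobox gene of the organizer, was listed at 0 in both EZH2-/- samples and stood at 2.48 and 3.07 TPM. CER1, a secreted antagonist of NODAL, BMP and WNT, rose to 36.6 and 24.2 TPM from 1.5 and 3.2 TPM. FOXH1, which carries NODAL signals to DNA and is high in hESCs, fell from 60.9 and 94.9 to 2.34 and 3.14 TPM. MESP1, a factor of early heart progenitors, did not pass the filter.

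Cardiac mesoderm regulators and some contractile genes were on in the double knockout. Of 19 genes, 14 were tested and 13 were higher, with 0 lower and a median log2 difference of 4.33. HAND1 and HAND2, factors of heart and lateral mesoderm, were listed at 0 in both EZH2-/- samples and reached 31.6 and 13.97 TPM and 29.0 and 15.4 TPM. NKX2-5, an early heart factor, rose from 0 and 0.51 to 32.6 and 27.7 TPM and ISL1, of the second heart field, from 0.18 and 0.12 to 68.6 and 55.1 TPM. NPPB, which codes for a natriuretic peptide, was the highest of the list, at 634 and 742 TPM from 0 and 2.32 TPM (log2 difference 8.56 ± 0.47, adjusted p = 4.39e-07). MYL7, an atrial myosin light chain, rose from 2.56 and 13.9 to 371 and 579 TPM. The heavy chains of heart muscle, MYH6 and MYH7, were at 0.14 TPM or less in the double knockout and did not pass the filter.

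Most vessel genes and some early blood regulators were called higher. Of 16 endothelial genes, all tested, 12 were higher and 0 lower, or 1 without double knockout sample 1, with a median log2 difference of 2.30. PECAM1 and CDH5, adhesion proteins of endothelium, rose from 0.09 and 0.37 to 29.8 and 13.2 TPM and from 0.36 and 0.13 to 29.2 and 11.9 TPM. KDR, the main VEGF receptor, was at 68.7 and 31.6 TPM in EZH2-/- and 79.6 and 14.7 TPM in double knockout samples, and was not called. Among 16 blood genes 7 were tested and 6 were higher, namely the early regulators TAL1, LMO2, GATA2, RUNX1 and LYL1 and the surface protein CD34. CD34 rose from 0.48 and 0.31 to 98.6 and 57.3 TPM and LMO2 from 2.37 and 1.00 to 48.0 and 66.8 TPM. The erythroid factor GATA1, the myeloid factor SPI1, the leukocyte marker PTPRC and the embryonic and fetal globins HBZ, HBE1, HBG1 and HBG2 were below 2 TPM in every EZH2-/- and double knockout sample and did not pass the filter.

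Smooth muscle and mesenchymal genes reached high levels. ACTA2, smooth muscle actin, rose from 1.80 and 2.43 to 990 and 1218 TPM, a log2 difference of 8.47 ± 0.19 (adjusted p = 1.37e-09). Of 13 smooth muscle genes 12 were tested and 9 were higher, with 0 lower. TAGLN rose from 177 and 578 to 3154 and 3982 TPM, whereas the smooth muscle heavy chain MYH11 was at 1.27 and 0.93 TPM and did not pass the filter. Among 12 factors of epithelial-mesenchymal transition and their targets 11 were tested and 9 were higher, with 0 lower and a median log2 difference of 4.12. FN1, fibronectin, rose from 93.0 and 56.4 to 10941 and 5396 TPM and had the highest TPM of the tested genes in double knockout sample 1. VIM, an intermediate filament of mesenchymal cells, rose from 117 and 103 to 3766 and 4409 TPM. The transcription factors SNAI2, TWIST1, ZEB1, ZEB2, PRRX1 and FOXC2 were higher, while SNAI1 was at 8.87 and 7.03 TPM before and 12.5 and 4.56 TPM after loss of EZH1, and was not called. The epithelial genes CDH1 and EPCAM were not lower, with CDH1 at 110 and 95.7 TPM in EZH2-/- and 118 and 101 TPM in double knockout samples.

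Collagens rose nearly as a whole. Of 17 collagen genes, all tested, 16 were higher and 0 lower, with a median log2 difference of 4.91. COL3A1, a fibrillar collagen of soft connective tissue, rose from 0.06 and 0.04 to 2774 and 961 TPM, a log2 difference of 10.60 ± 0.36 (adjusted p = 2.09e-08). COL1A1 rose from 22.6 and 24.2 to 1798 and 1133 TPM and COL4A1, of basement membranes, from 42.7 and 34.5 to 1809 and 420 TPM. All 17 collagens were higher in double knockout sample 1 than in sample 2. COL14A1 was the exception in the other comparison, at 16.0 and 11.1 TPM in EZH2-/- and 12.8 and 8.52 TPM in double knockout samples. Of 10 small leucine-rich proteoglycans, which bind collagen fibrils, 4 were tested and 4 were higher. LUM was listed at 0 in both EZH2-/- samples and stood at 318 and 369 TPM, and BGN rose from 2.50 and 1.78 to 598 and 315 TPM.

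Neural genes were split. Of 22 genes of the neural plate and forebrain, 13 were tested, 7 were higher and 2 were lower, with a median log2 difference of 1.71. PAX6, an early neural and eye factor, rose from 0.24 and 0.30 to 21.9 and 24.5 TPM, and DLX5 from 0.18 and 0 to 25.6 and 29.5 TPM. SOX3 and HESX1, which hESCs express, fell from 10.9 and 8.72 to 1.33 and 1.45 TPM and from 27.1 and 14.8 to 4.72 and 1.80 TPM. SOX1, a defining marker of the neural plate, was at 0.05 TPM in both double knockout samples, and the neuronal factors NEUROG2 and NEUROD1 were at 0.23 TPM or less. Trophoblast and amnion genes gave 8 higher and 1 lower, or 0 lower without EZH2-/- sample 1, of 12 tested and 16 listed. GATA3 rose from 0.17 and 0.17 to 36.4 and 20.4 TPM and KRT7, a keratin of simple epithelia, from 11.7 and 14.3 to 136 and 162 TPM. The hormone subunit CGA and the trophoblast factor ELF5 were at 3.10 TPM or less and did not pass the filter.

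Most genes of the pluripotency list fell. Of 26 genes of core and primed pluripotency, all tested, 17 were lower and 0 were higher, with a median log2 difference of −2.70. With 1 sample left out the median lay between −2.83 and −2.48. Fewer of the 26 kept a call without EZH2-/- sample 1 or double knockout sample 2. POU5F1, the central pluripotency factor, fell from 3317 and 3456 to 123 and 150 TPM, a log2 difference of −4.63 ± 0.27 (adjusted p = 5.17e-07). NANOG fell from 185 and 107 to 8.1 and 5.8 TPM and SOX2 from 216 and 120 to 7.09 and 24.5 TPM. PRDM14, a guardian of the pluripotent state, was the most reduced of the list and one of the 15 largest falls, from 51.5 and 75.2 to 1.78 and 0.07 TPM. None of the 26 genes met the count of genes that went from on to silent. FOXD3, which is not on the list, met it, from 17.8 and 16.9 to 0.77 and 0.73 TPM. SALL4, LIN28B and UTF1 were not called, nor were NODAL and LEFTY2, ligands of the pathway that hESCs depend on. Of 12 genes of naive pluripotency 9 were tested, 3 were higher and 2 were lower, or 1 lower without EZH2-/- sample 2. Over all tested genes 14.1% were higher and 5.63% lower. The higher naive genes were KLF2, KLF5 and TBX3, which are also expressed in differentiated tissues. TBX3 was at 0.13 and 0.10 TPM before and 72.0 and 33.1 TPM after loss of EZH1.

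**Figure D2:**
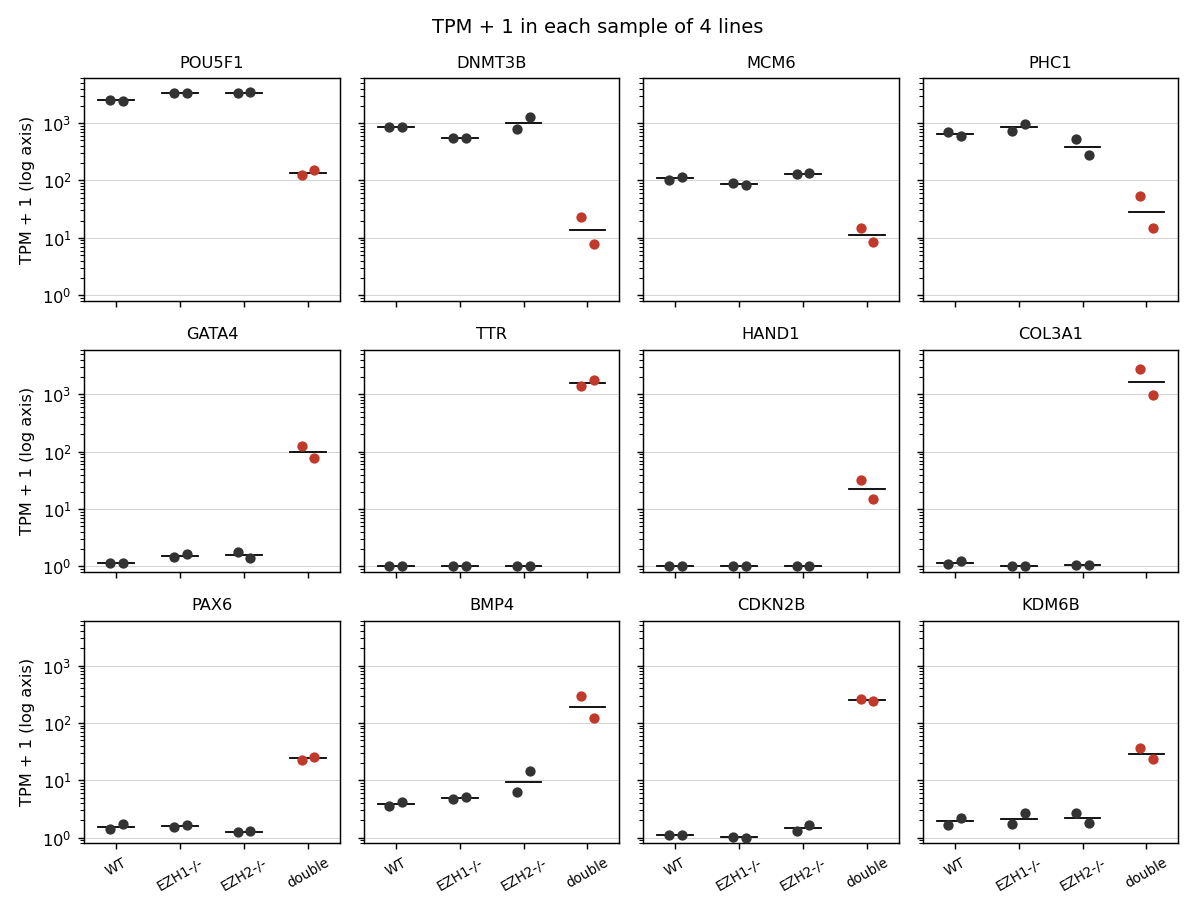
TPM + 1 on a log axis in each sample of WT H1, EZH1-/- H1, EZH2-/- H1 and double knockout ("double") cells for 12 genes, with a line at the mean of the 2 samples on the log scale. In each panel the 6 samples of the first 3 lines lie together and the 2 double knockout samples (red) lie apart, as for POU5F1 at 123 and 150 TPM.

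Genes of DNA replication and mitosis fell together. All 17 genes of the list were tested and lower, with log2 differences from −3.56 to −2.10 and a median of −2.57. With 1 sample left out the median lay between −3.38 and −2.26. Not all 17 kept the call without either EZH2-/- sample or without double knockout sample 2. In the last case the smallest fall was −1.30, less than 3-fold. MCM6, part of the replicative helicase, fell from 130 and 132 to 13.8 and 7.45 TPM (log2 difference −3.56 ± 0.25, adjusted p = 1.76e-06). The S phase gene PCNA fell from 466 and 585 to 98.2 and 143 TPM and the proliferation marker MKI67 from 43.8 and 23.4 to 11.3 and 1.57 TPM. MKI67 lost its call without either EZH2-/- sample or double knockout sample 2. Some CDK inhibitors and G1 cyclins were higher. Of 12 CDK inhibitors and G1 cyclins 11 were tested and 6 were higher, with 0 lower, or 2 after rescaling or without double knockout sample 1 and 1 without EZH2-/- sample 2. CDKN2A and CDKN2B, neighbouring inhibitor genes that are textbook Polycomb targets, rose from 2.33 and 13.9 to 335 and 586 TPM and from 0.29 and 0.66 to 258 and 243 TPM. CDKN1A, the p53 target p21, rose from 7.39 and 20.0 to 631 and 716 TPM and CDKN1C from 18.3 and 9.11 to 134 and 112 TPM. The G1 cyclins CCND1 and CCND2 rose as well, CCND2 from 27.4 and 27.02 to 149 and 278 TPM, and CCND1 lost its call without double knockout sample 1.

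Stress response genes rose in part. Of 13 genes, all tested, 9 were higher and 0 lower, with a median log2 difference of 3.34. ATF3 and DDIT3, of the integrated stress response, rose from 13.3 and 11.6 to 272 and 269 TPM and from 1.77 and 5.83 to 65.5 and 95.0 TPM. The p53 targets MDM2, TP53I3 and GADD45A were higher, MDM2 from 33.9 and 15.9 to 241 and 874 TPM. The 4 heat shock genes of the list, HSPA1A, HSPA1B, DNAJB1 and HSPH1, were not called, with HSPH1 at 92.3 and 78.4 TPM before and 63.2 and 86.4 TPM after loss of EZH1. Among 10 housekeeping genes 0 were higher, or 1 without EZH2-/- sample 1, and 1 was lower, HPRT1, from 67.5 and 48.3 to 6.18 and 5.17 TPM.

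Signalling ligands of several families were called higher. The counts here stand beside 14.1% higher and 5.63% lower over all tested genes. BMP ligands, which drive mesoderm and extraembryonic fates, gave 7 higher and 0 lower of 9 tested and 13 listed. BMP4 rose from 5.22 and 13.4 to 293 and 121 TPM (log2 difference 4.32 ± 0.49, adjusted p = 3.94e-05) and BMP2 from 1.37 and 0.67 to 81.2 and 29.0 TPM. Their antagonists gave 10 higher and 1 lower, or 0 lower without EZH2-/- sample 1 or double knockout sample 2, of 13 tested and 14 listed. NOG, which codes for noggin, rose from 0.72 and 0.32 to 48.6 and 13.54 TPM and FST, the activin antagonist follistatin, from 6.65 and 7.39 to 301 and 824 TPM. Among 12 BMP receptors and SMADs, 5 were higher and 0 lower, or 2 lower without double knockout sample 1, the type II receptor BMPR2 at 4.37 and 1.68 TPM before and 27.7 and 16.3 TPM after loss of EZH1. Of 9 direct targets of the pathway 3 were higher and 0 lower, with 5 higher without double knockout sample 2 and 2 higher without sample 1. ID1, an immediate BMP target, was at 234 and 446 TPM in EZH2-/- and 348 and 243 TPM in double knockout samples and was not called, while BAMBI rose from 31.7 and 19.8 to 508 and 464 TPM.

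Genes of TGF-beta and WNT signalling were called as well. Of 18 genes of NODAL, activin and TGF-beta signalling 17 were tested and 9 were higher, with 0 lower, or 1 with a replicate block. TGFB2 rose from 0.48 and 0.50 to 88.1 and 64.7 TPM, TGFB1 from 9.34 and 6.15 to 152 and 153 TPM and INHBA, a subunit of activin A, from 0.09 and 0.28 to 51.0 and 17.5 TPM. Of 24 WNT ligands and secreted modulators 20 were tested, 12 were higher and 1 was lower. WNT2 and WNT6 were listed at 0 in both EZH2-/- samples and stood at 26.1 and 42.0 TPM and at 20.3 and 43.1 TPM. The WNT inhibitor DKK1 rose from 0.54 and 0.30 to 310 and 211 TPM, while SFRP2, an inhibitor abundant in hESCs, fell from 375 and 256 to 17.2 and 23.4 TPM. Retinoic acid genes gave 5 higher and 2 lower of 14 tested and 16 listed, beside 14.1% and 5.63% of all tested genes. The enzymes that make retinoic acid, ALDH1A1, ALDH1A2 and ALDH1A3, were higher, ALDH1A1 from 1.64 and 0.36 to 103 and 55.1 TPM. The receptor RARG and the binding protein CRABP1, both high in hESCs, were lower. RARG lost its call without EZH2-/- sample 2 or double knockout sample 2, and ALDH1A3 without EZH2-/- sample 2.

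Growth factors of the IGF system were among the largest rises in the whole comparison. IGF2, a fetal growth factor, rose from 0.32 and 0.18 to 848 and 633 TPM, a log2 difference of 9.2 ± 0.23 (adjusted p = 1.54e-09). IGF1 was listed at 0 in both EZH2-/- samples and stood at 63.8 and 90.5 TPM. The binding proteins IGFBP3, IGFBP5 and IGFBP7 rose to between 445 and 1184 TPM from 3.09 TPM or less. Of 20 IGF and imprinted growth genes 17 were tested and 10 were higher, with 0 lower and a median log2 difference of 2.91. H19, an imprinted neighbour of IGF2, was at 3.96 and 2.14 TPM and at 112 and 53.0 TPM, and was not called (log2 difference 4.31 ± 2.04, adjusted p = 0.108). MEG3, another imprinted gene, was at 0.26 TPM or less in all 4 samples.

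Some genes of the Polycomb machinery other than the PRC2 core were called, in both directions. JARID2, which brings PRC2 to chromatin in hESCs, fell from 148 and 97.3 to 29.0 and 14.2 TPM. Of 19 genes of PRC1, the complex that ubiquitylates histone H2A, all were tested, 5 were higher and 2 lower. Over all tested genes the shares were 14.1% higher and 5.63% lower, so counts this small say little about PRC1 as a set. PHC1 fell from 530 and 271 to 53.4 and 14.1 TPM (log2 difference −3.73 ± 0.48, adjusted p = 0.000105), and its paralogue PHC2 rose from 11.8 and 5.94 to 89.0 and 76.7 TPM. CBX8, PCGF5 and YAF2 were also higher and KDM2B was also lower. Without double knockout sample 1 the PRC1 count was 3 higher, with CBX8 and PCGF5 no longer called, and without sample 2 it was 1 lower, with KDM2B no longer called. CBX8 also lost its call without EZH2-/- sample 1 and PCGF5 without EZH2-/- sample 2 or after rescaling. KDM6B, a demethylase of histone H3 lysine 27, rose from 1.71 and 0.81 to 35.5 and 22.5 TPM, while its relative KDM6A was not called. DNMT3B, a de novo DNA methyltransferase of early embryos, was the largest fall of all called genes, from 796 and 1268 to 21.8 and 6.92 TPM (log2 difference −6.23 ± 0.45, adjusted p = 1.85e-06). DNMT1 and TET1 were lower too and TET2 was higher. Without EZH2-/- sample 2 or double knockout sample 2 neither DNMT1 nor TET1 was called, which left 1 lower of the 7 DNA methylation enzymes, and TET1 was not called without EZH2-/- sample 1 either.

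The largest single rises were led by CST1, a secreted cysteine protease inhibitor, from 0.41 and 0.63 to 8377 and 5630 TPM. Its log2 difference was 12.15 ± 0.47 (adjusted p = 3.48e-08). CST4, a close relative also on chromosome 20, rose from 0 and 0.21 to 252 and 306 TPM, and reads of such similar genes can be shared between them by the counting. The other large rises not yet named were ANKRD1, a cofactor gene induced in stretched muscle, and GDF15, a stress-induced cytokine. ANKRD1 rose from 0 and 0.15 to 821 and 269 TPM and GDF15 from 0.82 and 2.66 to 481 and 565 TPM. Among the 15 largest falls were POLR3G, a subunit of RNA polymerase III enriched in hESCs, from 274 and 114 to 2.81 and 1.91 TPM, and the kinase LCK, from 89.4 and 54.2 to 0.80 and 0.20 TPM. The antisense RNA FOXD3-AS1 fell from 256 and 273 to 2.48 and 5.22 TPM. ZSCAN10, PTPRZ1, USP44 and IDO1 belonged to the same 15, and 7 of the 15 were RNAs named only as clones, antisense or intergenic transcripts.

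Where EZH2 was intact, few genes were called after loss of EZH1. EZH1-/- H1 cells had 10 genes higher (0.0602%) and 6 genes lower (0.0361%) than WT H1 cells, with 2777 genes at an unadjusted p of 0.05. These calls did not survive the loss of a sample, since the count was 0 in both directions without any one of the 4 samples. A fit of the 4 samples alone gave 88 higher and 29 lower, and an adjusted p of 5% without a fold limit 130 and 54. The main fit takes 1 spread per gene from all 6 lines, though the spread was unequal. The SD over genes of the log2 difference between the 2 samples was 0.327 in WT and 0.307 in EZH1-/- cells. It was 0.591 in EZH2-/- and 0.773 in double knockout cells. Pooling can thus hide calls here and add calls in the main comparison. DDIT3 was at 4.84 and 5.66 TPM in WT and 47.3 and 66.2 TPM in EZH1-/- samples, and DDIT4, another stress gene, at 54.2 and 45.9 TPM and at 468 and 531 TPM. The lower ones included the chaperone HSPA8, at 2529 and 2723 TPM and at 722 and 469 TPM, and ODC1, the first enzyme of polyamine synthesis. Of the lists named here only the stress response held a call, 1 higher (DDIT3) and 2 lower (HSPA1A and HSPA1B, which have nearly the same sequence). The HOX, endoderm, cardiac and pluripotency lists held 0 calls. POU5F1 was at 2531 and 2428 TPM in WT and 3342 and 3367 TPM in EZH1-/- samples, and GATA4 at 0.64 TPM or less in all 4.

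The effect of EZH1 loss differed between the backgrounds when the difference itself was tested. The interaction, the log2 difference of double knockout and EZH2-/- cells minus that of EZH1-/- and WT cells, was positive in 1606 genes (9.67%) and negative in 757 genes (4.56%). Without any one of the 4 WT and EZH1-/- samples, 898 to 980 were positive and 369 to 440 negative, and without double knockout sample 1 1251 were negative. It was called in 28 of the 35 tested HOX genes, 12 of 14 cardiac and 13 of 17 collagen genes, each time with a positive sign. Of the 14 tested endoderm genes 11 had a positive interaction and 1, FOXA3, a negative one. Negative calls held 15 of the 26 pluripotency genes and 12 of the 17 genes of replication and mitosis. TTR had an interaction of 10.60 ± 0.56 (adjusted p = 1.2e-06), since it was at 0 in WT and EZH1-/- samples alike. MT1X, a metallothionein gene with close relatives that can share its reads, was at 119 and 43.9 TPM in WT, 348 and 1051 TPM in EZH1-/-, 401 and 397 TPM in EZH2-/- and 20.6 and 23.3 TPM in double knockout samples. Its interaction was −7.17 ± 0.69 (adjusted p = 4.87e-05).

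**Figure D3:**
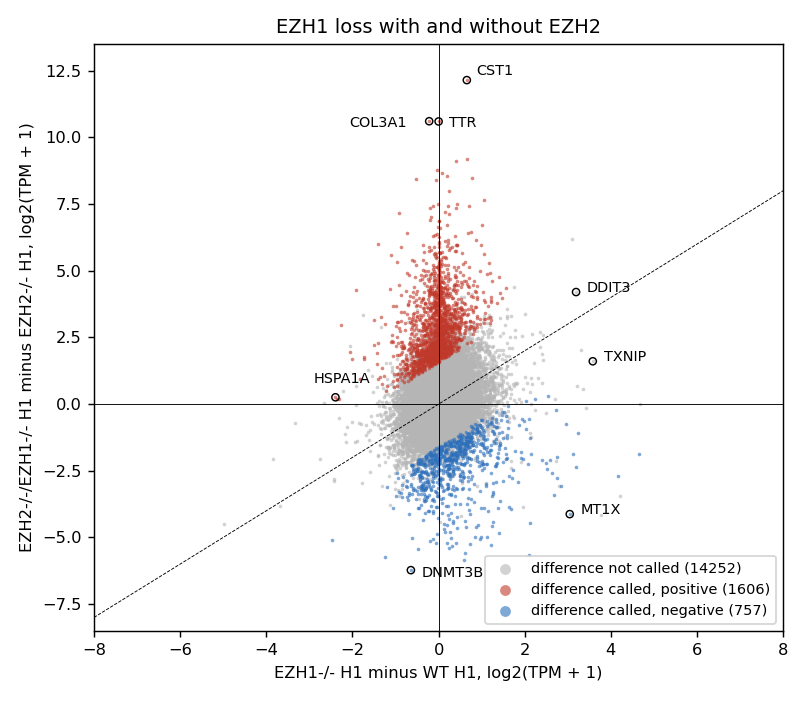
Log2 differences of EZH1-/- H1 minus WT H1 cells (horizontal axis) against those of double knockout minus EZH2-/- H1 cells (vertical axis) for 16615 genes, with a dashed line at equal values. Red and blue points are the 1606 and 757 genes with a called difference between the backgrounds, and most points spread far more along the vertical axis than along the horizontal axis.

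EZH2 was also absent in the control line of the comparison, and that line was compared with WT as well. EZH2-/- cells had 0 genes called in either direction against WT H1 cells by limma, and 1002 genes at an unadjusted p of 0.05. The EZH2-/- samples serve as the control of the double knockout, so the values of the 2 comparisons are not independent. By level, HOXD11 was at 0 in both WT samples and at 0 and 0.10 TPM in the EZH2-/- samples, and GATA4 at 0.13 and 0.16 TPM and at 0.75 and 0.41 TPM. BMI1, a PRC1 subunit, was at 2.12 and 2.99 TPM in WT, 34.1 and 10.6 TPM in EZH2-/- and 45.4 and 24.7 TPM in double knockout samples.

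Loss of another PRC2 subunit gave lists that shared most genes with the double knockout. EED-/- and SUZ12-/- cells were each compared with WT H1 cells, so the means come from samples outside the main comparison. All comparisons take the same spread per gene from the fit of 12 samples, and both of these share the WT samples. The lists are therefore not fully independent of each other. EED-/- cells had 2986 genes higher (18%) and 1143 lower (6.88%), and SUZ12-/- cells 2368 higher (14.3%) and 985 lower (5.93%). These lists hold only genes that passed the filter in the EZH2-/- and double knockout samples. Genes on only in EED-/- or SUZ12-/- cells are left out, so the shares of these lists given below can come out too high. With the filter set over all 12 samples, 3099 genes were higher in EED-/- and 2768 in SUZ12-/- cells. Of the 2346 genes higher in the double knockout, 1990 (84.8%) were higher in EED-/- cells, which is 66.6% of the EED-/- list, and 1598 (68.1%) in SUZ12-/- cells, 67.5% of that list. For lower genes the shared numbers were 753 of 935 (80.5%, and 65.9% of the EED-/- list) and 608 (65.0%, and 61.7% of the SUZ12-/- list). Of the genes higher in the double knockout, 235 (10%) were called higher in neither of the other lines, beside 78.7% of all tested genes. Of those lower in it, 147 (15.7%) were called lower in neither, beside 91.6% of all tested genes. Opposite calls were rare, at most 4 genes in a direction. Of the 415 silent genes that came on, 289 (69.6%) were at 5 TPM or more in all 4 EED-/- and SUZ12-/- samples. Among the 17383 genes that were silent in EZH2-/- cells and did not come on, 88 (0.506%) were.

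The 3 lines differed in the level of single genes, given here side by side and without a test between them. TTR was at 1369 and 1746 TPM in the double knockout, 535 and 1694 TPM in EED-/- and 2997 and 3080 TPM in SUZ12-/- samples. AFP was at 201 and 183 TPM in the double knockout, 163 and 768 TPM in EED-/- and 13208 and 13695 TPM in SUZ12-/- samples. MYL7 was at 371 and 579, 210 and 375, and 14.5 and 9.46 TPM in the same order, and CST1 at 8377 and 5630, 2171 and 7977, and 274 and 300 TPM. PAX6 stood at 21.9 and 24.5, 129 and 50.03, and 7.94 and 5.66 TPM. POU5F1 was highest in the double knockout, at 123 and 150 TPM, and was at 5.27 and 3.62 TPM in EED-/- and 91.0 and 47.0 TPM in SUZ12-/- samples. For TTR, AFP, MYL7, CST1 and PAX6 the SUZ12-/- samples thus lay outside the range of the other 4 samples, and for POU5F1 both EED-/- samples did.

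The 2 double knockout samples were less alike than the samples of the other lines. They differed by at least 3-fold in 979 of 16615 genes (5.89%), of which 814 were higher in sample 1 and 165 in sample 2. The same count was 33 in WT, 33 in EZH1-/-, 270 in EZH2-/-, 317 in EED-/- and 40 in SUZ12-/- cells. Sample 1 was higher in 11244 of the 16615 genes, with a median log2 difference of 0.31. Beside the 17 collagens, 16 of 17 genes of replication and mitosis and 14 of 16 endothelial genes were higher in sample 1, whereas 7 of 14 cardiac genes were. One of the 5 widest gaps was at PODXL, a sialomucin of pluripotent and epithelial cells, with 504 and 417 TPM in EZH2-/- and 374 and 12.0 TPM in double knockout samples. Without sample 1, 2193 genes were higher and 1363 lower in the double knockout, and without sample 2 the counts were 2742 and 692. The part of this difference between samples in any single result was not tested.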

How the data were processed

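RNA was sequenced from 12 samples of H1 hESC lines used here, 2 each of WT, EZH1-/-, EZH2-/-, EZH2-/-/EZH1-/-, EED-/- and SUZ12-/- cells. Another 7 samples of a time course were not used here. The authors made TruSeq libraries and estimated expression with RSEM and Bowtie2 on an mRNA reference of GRCh38 and deposited TPM per gene. The methods also name EDASeq, for normalized tag counts, which were not used here. No read counts were analysed, so the edgeR test that the methods name on raw counts could not be run and limma took its place. Groups came from the genotype labels.

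TPM values were turned into log2(TPM + 1). Genes that reached 1 TPM in 2 or more of the 4 samples were fitted with limma 3.58.1 in R 4.3.3, with 1 mean per line, 6 residual degrees of freedom and trend and robust options. Adjusted p-values are limma's moderated test with Benjamini-Hochberg adjustment over 16615 genes, two-sided, and a call needed an adjusted p of at most 1% and a fold change of at least 3. The thresholds are those of the study. The code was tested on simulated data. Tables were made with Python 3.11.15, pandas 2.3.3 and numpy 2.4.6, and figures with matplotlib 3.10.9. Promoters came from RefSeq, GRCh38.p14. The genes named are the 4 PRC2 genes EZH1, EZH2, EED and SUZ12, the 15 largest rises and falls with no overlap between lines, the 5 largest interactions and the 5 largest gaps between the double knockout samples in each direction, and members of 34 gene lists, called or highest members first. DDIT4, HSPA8, ODC1 and FOXA3 among the interaction and EZH1-/- results were chosen after their values were seen. Some list members are not reported here by name. The members and lists were chosen with earlier results of these data known. Alternatives were other filters, pseudocounts, scalings, thresholds, sample sets and each sample left out.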

Additional observations from a re-analysis of the deposited data

Results flagged for a closer look

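The effect of EZH1 loss differed between cells with and without EZH2 by the interaction test in limma, with 1606 genes more positive and 757 more negative where EZH2 was absent. The 5 largest positive interactions were CST1 at 11.49, COL3A1 at 10.82, TTR at 10.60, LUM at 8.95 and ANKRD1 at 8.81 on the log2 scale. The 5 largest negative ones were RP11-267L5.1 at −7.75, MT1X at −7.17, RP11-536I6.2 at −6.86, RP11-297M9.1 at −6.57 and RP11-746M1.1 at −6.53. RP11-746M1.1 also differed between the double knockout samples, at 0.30 and 17.8 TPM.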

How the results depend on the processing

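With 2 samples per line and no read counts, precision is set by the spread of 6 lines. That spread was unequal and largest between the double knockout samples, so 1 pooled value is too large for some lines and too small for others. For the double knockout against EZH2-/- cells, a fit of the 4 samples alone gave 1376 higher and 497 lower, an adjusted p of 5% without a fold limit 5175 and 3063, and limma treat 623 and 151. Leaving out 1 sample gave 1947 to 2742 higher and 692 to 1363 lower. For EZH1-/- against WT cells the counts were 88 and 29 in the fit of 4 samples, 130 and 54 at 5%, 0 and 0 by treat and 0 to 0 in either direction with 1 sample left out. Rescaling gave 6 and 3, and 6, 3 and 3 genes were higher without a filter, with a pseudocount of 0.1 and without trend. The interaction counts were 3353 and 1912 at 5%, 278 and 80 by treat, and 898 to 2230 higher and 369 to 1251 lower with 1 sample left out. Silent genes that came on numbered 170 at TPM below 0.5 and at least 10 and 857 at below 1 and at least 2, against 9 and 186 the other way.

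Replicate numbers are shared by the lines, but nothing in the labels says that a number marks a shared batch, and same-numbered samples of the double knockout and EZH2-/- lines had a correlation of deviations of 0.239. With a replicate block 2359 genes were higher and 944 lower, and the interaction had 1613 and 773. For EZH1-/- against WT cells the replicate block gave 8 and 6.

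Over 187 named genes and 9 alternatives, 1600 of 1683 values kept direction and side of the threshold, and 0 called genes reversed. These 9 do not include limma treat, which left 623 genes higher and 151 lower in the whole comparison. Of 144 called genes 12 lost the call in at least 1 alternative, each of them with a sample left out: LIN28A, MKI67 and TET1 without EZH2-/- sample 1, EZH2-/- sample 2 or double knockout sample 2, FGB without either EZH2-/- sample or double knockout sample 1, RARG and DNMT1 without EZH2-/- sample 2 or double knockout sample 2, DDIT4 and PCGF5 without EZH2-/- sample 2 or double knockout sample 1, CBX8 without EZH2-/- sample 1 or double knockout sample 1, CCND1 without double knockout sample 1, KDM2B without double knockout sample 2 and ALDH1A3 without EZH2-/- sample 2. PCGF5 also lost its call after rescaling. The reversed values were of genes that were not called. Rescaling gave −0.15 for CDH1, −0.038 for LEFTY2, −0.070 for HSPA1B, −0.17 for KDM6A and −0.045 for ODC1. With 1 sample left out, log2 differences ranged from −0.33 to 0.085 for EZH1, −0.88 to 0.18 for EZH2, −0.98 to 0.37 for SUZ12, −0.025 to 1.57 for BMI1, −0.020 to 0.20 for CDH1, −0.059 to 0.57 for HSPA1A, −0.059 to 0.41 for HSPA1B, −0.42 to 0.021 for HSPH1, −0.62 to 0.31 for ID1, −0.56 to 0.70 for KDM6A, −1.60 to 0.76 for KDR, −0.15 to 0.55 for LEFTY2, −1.17 to 0.35 for NODAL and −0.68 to 0.60 for SNAI1. For genes chosen by their gap between the double knockout samples they ranged from −4.20 to 0.40 for COMMD3-BMI1, −0.76 to 3.22 for RNF103-CHMP3, −3.14 to 2.06 for RP11-334J6.7, −3.81 to 0.043 for RP11-746M1.1, −1.28 to 2.54 for RP11-801F7.1 and −4.57 to 0.21 for SMIM11. Of 408 list counts, an alternative chosen after seeing the data, 380 stayed within 1.5 times. The causes were not tested.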
